A study of Homo sapiens with 13 samples.

Results

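DNA methylation is written, copied and removed by a small set of enzymes, and the genes described here are 8 of them in human cells taken towards the germ line: DNMT3A, DNMT3B, UHRF1, HELLS, TET1, TET2, TET3 and APOBEC3B. They were picked by name and looked up in 3 deposited tables of genes that differed from embryonic stem cells, which list 9706 genes between them. 7 of the 8 were found. DNMT3A stood in none of the 3 tables and is not analysed here. Each table holds genes that had passed the authors' test against the stem cells, so a gene's presence is itself a selection. DNMT3B and TET2 stood in all 3 tables, HELLS and APOBEC3B in 2, and UHRF1, TET1 and TET3 only in the table of day 8 DZ+PGCLCs.

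Bulk RNA sequencing covered 5 groups of 2 libraries, all from WIS2, a human embryonic stem cell line. 4i ESCs were stem cells kept on mouse feeders in LIF, bFGF and TGFβ with kinase inhibitors (of JNK, p38, ERK and GSK3), and were sorted for the surface enzyme TNAP. N3+PGCLCs were primordial germ cell-like cells made from them with BMP2, SCF, EGF and a ROCK inhibitor and sorted for TNAP and a NANOS3 reporter. DM+PGCLCs were moved on day 3 to activin A, retinoic acid, SCF and EGF for 6 more days and sorted, by the labels, for TNAP and NANOS3, although their titles name DMRT1. These 3 groups carried NANOS3-tdTomato and DMRT1-Venus reporters, and the labels list no transgene for them. The study's own text, unlike the labels, gives the line with both reporters an inducible SOX17, an inducible PRDM1 and the survival gene BCL2L1. It also used the parental reporter line without transgenes, and does not state which of them gave these libraries. Reads of SOX17 and PRDM1 in these groups therefore cannot be assigned to the endogenous genes alone. For DZ+PGCLCs a different WIS2 derivative was used, in which tdTomato reports DAZL, doxycycline induces DMRT1 and dexamethasone induces SOX17. They had 1 day of the BMP2 mixture with dexamethasone, then activin A, retinoic acid, SCF and EGF with both inducers for 2 days by the labels, which does not fill the time to the sorts. Cells positive for the DAZL reporter were collected on day 4 or day 8. Reporter line, transgenes, medium, time and sort therefore all change together between DM+PGCLCs and DZ+PGCLCs and cannot be told apart. The study speaks of independent biological replicates for each group, without saying how they were separated.

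Levels are RPKM, read counts scaled by transcript length and by the reads mapped in a library, so they can be set side by side between genes. Differences are on the log2(RPKM + 0.1) scale of the deposited files, which understates the change of low genes. Across the 10 libraries, estimated relative depth ran from 0.665 to 1.14 of that of 4i ESC replicate 1. Of the listed genes, 6533 to 7135 reached 1 RPKM. The germ cell markers SOX17, PRDM1, TFAP2C, NANOS3 and KIT were all called higher than 4i ESCs in N3+PGCLCs and in DM+PGCLCs. In DZ+PGCLCs the label was not borne out by most of them: NANOS3 stood at 0 to 0.256 RPKM, KIT at 0.598 to 1.03 and TFAP2C at 2.21 to 3.19, against 42.3 and 44.1 for TFAP2C in 4i ESCs. PRDM1 went the other way on day 4, at 18.7 ± 3.77 RPKM (SD, n = 2) against 3.39 ± 1.21 in 4i ESCs (limma log2 difference 2.46 ± 0.43, adjusted p = 0.00239), and was not called on day 8 (1.01, adjusted p = 0.0684). SOX17 was high in DZ+PGCLCs, but reads of its transgene cannot be told apart from those of the endogenous gene. All 5 pluripotency markers were called lower than 4i ESCs in DZ+PGCLCs. Some markers of other cell types rose there. Of 6 mesoderm and amnion markers, TFAP2A (log2 difference 5.27 on day 4 and 4.24 on day 8) and GATA3 (5.07 and 4.80) were called higher than 4i ESCs and TBXT lower on both days. Of 3 listed endothelial markers, KDR was called higher on both days (1.84 and 1.68) and PECAM1 on day 8 (3.67), while TEK was called lower on both days. The summed level of the mesoderm and amnion list was 18.9 to 28.9 RPKM in DZ+PGCLCs against 8.33 and 19.2 in 4i ESCs. That of the listed endothelial markers was 22.4 to 29.3 against 10.8 and 12.4. In DM+PGCLCs the mesoderm and amnion list summed to more, 94.9 and 125 RPKM, with GATA3, TBXT and MIXL1 called higher than 4i ESCs. The endoderm marker GATA4 was called higher there too. The endothelial markers summed to 4.04 and 1.86 RPKM in DM+PGCLCs, with KDR and TEK called lower. The part of such cells in the enzyme levels was not tested. Mesoderm and amnion markers summed to 105 and 345 RPKM in N3+PGCLC replicates 1 and 2, and endoderm markers to 71.3 and 410, so replicate 2 held more of both. Without replicate 2 the log2 differences of N3+PGCLCs from 4i ESCs were -2.81 for DNMT3B, 2.46 for TET2 and -1.75 for APOBEC3B, all still called.

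DNMT3A and DNMT3B are the enzymes that place methyl groups on unmethylated CpG sites. UHRF1 binds half-methylated CpGs behind the replication fork and brings in DNMT1, which copies the mark, and HELLS is a chromatin remodeller that the copying needs in packed chromatin. TET1, TET2 and TET3 oxidise 5-methylcytosine to 5-hydroxymethylcytosine and further forms, which can be diluted by replication or cut out by base excision. APOBEC3B deaminates cytosine in single-stranded DNA and is best known for restriction of retroelements. Primordial germ cells are known for erasing most of their DNA methylation, during which genes that methylation keeps silent, such as DAZL, come on.

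On GRCh38, by GENCODE release 44, all 7 genes lie on the plus strand. DNMT3B spans chr20:32762385-32809359, UHRF1 chr19:4903080-4962154, HELLS chr10:94545329-94613905, TET1 chr10:68560337-68694487, TET2 chr4:105145875-105279816, TET3 chr2:73984910-74108176 and APOBEC3B chr22:38982347-38992804. TET2 and APOBEC3B each overlap an antisense gene on the opposite strand, TET2-AS1 and APOBEC3B-AS1. How strand was treated in computing RPKM is not stated, so reads of these pairs cannot be told apart. APOBEC3B also has near-identical APOBEC3 paralogs, and since only uniquely mapped reads were kept its level is uncertain.

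RefSeq promoter windows (GRCh38.p14, 250 bases before to 50 after a start site) were matched by symbol for 6 of the 7 genes, all but APOBEC3B, with 12 windows in all. The first window of UHRF1, of HELLS and of TET3 is shown. UHRF1 and HELLS were both low in DZ+PGCLCs, as were genes of DNA replication, while TET3 was high there. TET1 and DNMT3B were low there too, and the TET1 windows are not shown. The UHRF1 and HELLS windows lie within the spans given above, at starts downstream of the first one annotated. The only window of DNMT3B stands at such an internal start too, far from the first, and is not shown. Capitals mark TTCCCGC or its reverse complement GCGGGAA, the core read by E2F factors, which drive genes of S phase. TTCCCGC and GCGGGAA were searched on both strands.
UHRF1 promoter, chr19:4909251-4909550, plus strand: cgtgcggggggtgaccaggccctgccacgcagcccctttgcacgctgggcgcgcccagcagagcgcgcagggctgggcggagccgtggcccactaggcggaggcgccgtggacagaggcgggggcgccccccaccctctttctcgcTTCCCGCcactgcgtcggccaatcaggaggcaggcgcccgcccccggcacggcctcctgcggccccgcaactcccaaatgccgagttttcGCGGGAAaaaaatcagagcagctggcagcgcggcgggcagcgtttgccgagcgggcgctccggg
HELLS promoter, chr10:94545538-94545837, plus strand: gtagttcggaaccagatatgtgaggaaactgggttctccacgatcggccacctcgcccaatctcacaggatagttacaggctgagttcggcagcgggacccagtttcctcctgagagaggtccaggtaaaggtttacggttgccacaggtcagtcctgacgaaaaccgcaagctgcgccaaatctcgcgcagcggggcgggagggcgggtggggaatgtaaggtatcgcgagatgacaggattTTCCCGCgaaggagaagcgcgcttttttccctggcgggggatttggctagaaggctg
TET3 promoter, chr2:73984660-73984959, plus strand: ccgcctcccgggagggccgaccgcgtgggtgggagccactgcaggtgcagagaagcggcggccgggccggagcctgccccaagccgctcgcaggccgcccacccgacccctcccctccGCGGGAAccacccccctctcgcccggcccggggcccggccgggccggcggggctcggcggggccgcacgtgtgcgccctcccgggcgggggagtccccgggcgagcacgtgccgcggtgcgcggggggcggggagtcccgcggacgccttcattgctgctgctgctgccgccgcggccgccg
The core occurred 2 times in the UHRF1 window, 1 time in the HELLS window and 1 time in the TET3 window, and 6.55% of the 35116 RefSeq windows hold it. It occurred in no other window of these genes, so the windows shown are the ones that hold it. The DMRT1 core ACATTGT, or ACAATGT on the other strand, which overlaps the site of SOX factors, was in none of the 12 windows. Of all windows 2.30% hold it. The study's own mapping of DMRT1 binding put most peaks in introns or between genes, few at promoters, and named TET1 as a target. Promoter windows therefore cannot show whether DMRT1 binds these genes. The UHRF1 window held 36 CpGs, the HELLS window 22 and the TET3 window 45, against a median of 14 over all windows. Among windows not shown, that of DNMT3B held 3, those of TET1 10, 6 and 11, and those of TET2 13 and 35. The other UHRF1 windows held 40 and 46 CpGs, and the other TET3 window 33. A match describes the letters and is not a measured site.

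DNMT3B fell the most of the 7 genes in every group set against 4i ESCs. It stood at 168 and 153 RPKM in the 2 libraries of 4i ESCs, 22.9 and 39.1 in N3+PGCLCs, and 11.4 and 8.18 in DM+PGCLCs. In DZ+PGCLCs it stood at 2.91 and 3.03 on day 4 and at 3.45 and 2.81 on day 8. The first 3 groups did not overlap with each other or with DZ+PGCLCs, whose days 4 and 8 overlapped. The log2 difference from 4i ESCs was -2.42 ± 0.28 in N3+PGCLCs (SE of the limma fit, adjusted p = 0.00115) and -4.04 ± 0.28 in DM+PGCLCs (adjusted p = 5.99e-05). In DZ+PGCLCs it was -5.71 on day 4 (adjusted p = 2.60e-05), 52.4-fold lower, and -5.64 on day 8 (adjusted p = 1.57e-05), 50.0-fold lower. In bulk libraries, fewer cells that express a gene and less RNA per cell cannot be told apart. Each step down the order from 4i ESCs to N3+PGCLCs, DM+PGCLCs and DZ+PGCLCs passed the test: DM+PGCLCs were 3.08-fold below N3+PGCLCs (adjusted p = 0.00434), and day 8 DZ+PGCLCs 3.04-fold below DM+PGCLCs (adjusted p = 0.00163). The step from N3+PGCLCs to DM+PGCLCs had an adjusted p of 0.0917 when only those 4 libraries were fitted. Days 4 and 8 of DZ+PGCLCs, 0.07 ± 0.28 apart on the log2 scale, were not told apart (adjusted p = 0.881).

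**Figure D1:**
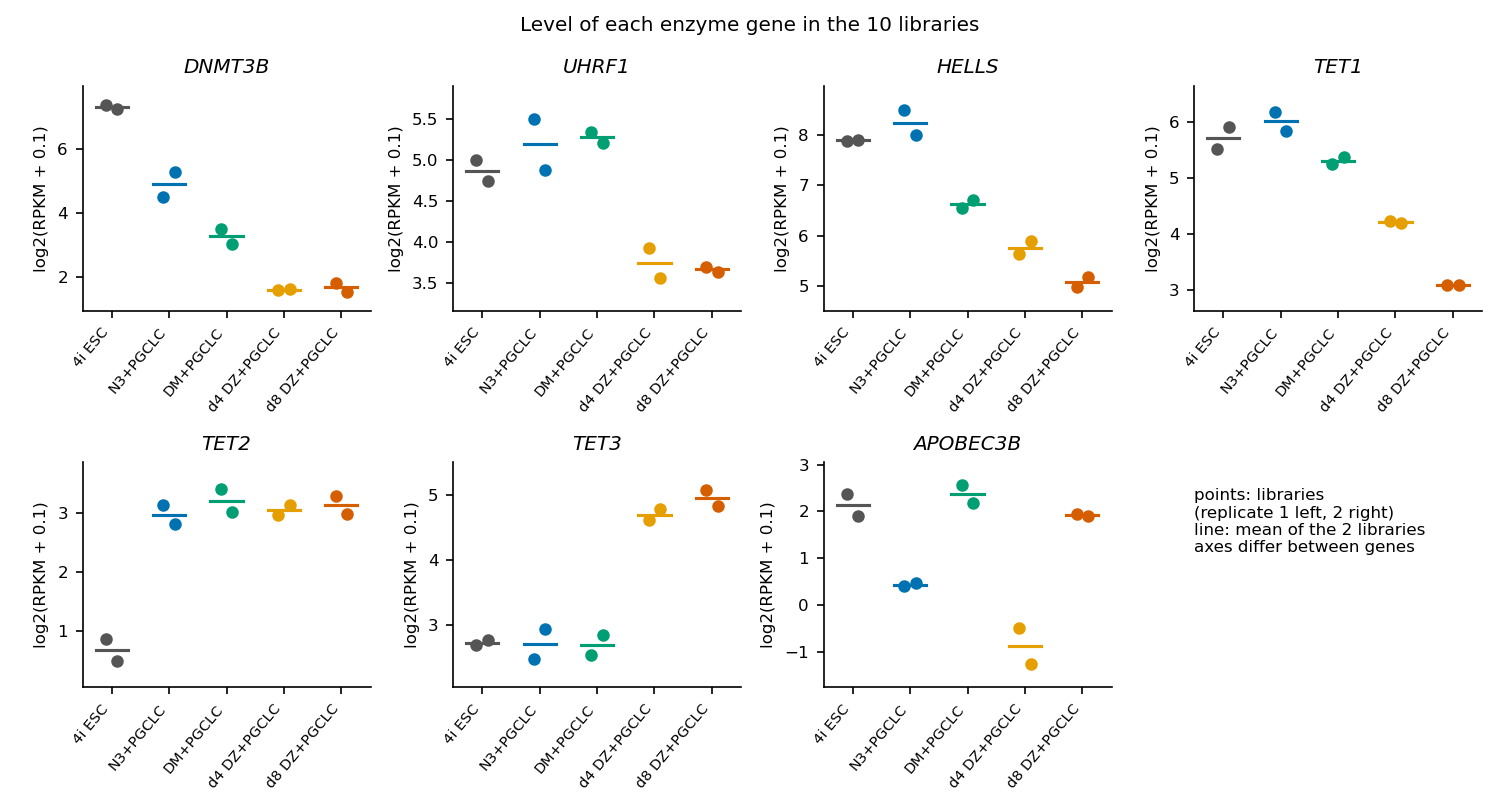
Level of the 7 enzyme genes as log2(RPKM + 0.1) in each library (points, replicate 1 left and 2 right) of the 5 groups, with the group mean as a line; the vertical axes differ between genes. DNMT3B steps down from 4i ESCs to DZ+PGCLCs, UHRF1 and TET3 divide DZ+PGCLCs from the other groups, and TET2 divides 4i ESCs from the rest.

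UHRF1 was called lower than 4i ESCs in DZ+PGCLCs and in no other group. The gene was listed only for its difference between day 8 DZ+PGCLCs and 4i ESCs, so this pattern in part restates that selection. It stood at 31.9 and 26.6 RPKM in 4i ESCs, 45.4 and 29.4 in N3+PGCLCs, and 40.6 and 36.9 in DM+PGCLCs. In DZ+PGCLCs it stood at 15.2 and 11.7 RPKM on day 4 and 12.9 and 12.4 on day 8. All 4 DZ+PGCLC libraries were below all 6 others. Against 4i ESCs the log2 difference was -1.12 ± 0.23 on day 4 (adjusted p = 0.00495) and -1.20 ± 0.23 on day 8 (adjusted p = 0.00268), just past the 2-fold limit. With libraries centred on abundant genes these became -0.92 and -0.98, under that limit. The day 4 difference also dropped to -0.99 without 4i ESC replicate 1 and to -0.94 without day 4 replicate 2. Against DM+PGCLCs the fall was larger: day 8 DZ+PGCLCs were 3.04-fold lower (log2 difference -1.61 ± 0.23, adjusted p = 0.000645). N3+PGCLCs (0.32 ± 0.23, adjusted p = 0.315) and DM+PGCLCs (0.41 ± 0.23, adjusted p = 0.169) were not called against 4i ESCs.

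HELLS, the most abundant of the 7 in the first 4 groups, was already lower than 4i ESCs in DM+PGCLCs. Its RPKM was 236 and 239 in 4i ESCs, 360 and 255 in N3+PGCLCs, 94.0 and 104 in DM+PGCLCs, 49.8 and 59.2 in day 4 DZ+PGCLCs, and 31.6 and 36.0 in day 8 DZ+PGCLCs. No group overlapped with another. The log2 difference from 4i ESCs was 0.35 ± 0.19 in N3+PGCLCs, not called (adjusted p = 0.195), then -1.26 in DM+PGCLCs (adjusted p = 0.00130), -2.13 on day 4 (adjusted p = 0.000143) and -2.81 on day 8 (adjusted p = 4.54e-05), each ± 0.19. DM+PGCLCs were 3.06-fold below N3+PGCLCs (adjusted p = 0.00111, and 0.0535 with only those 4 libraries fitted). The last 2 steps, from DM+PGCLCs to day 4 and from day 4 to day 8, were 1.82-fold and 1.61-fold with adjusted p of 0.00627 and 0.0305, and so under the 2-fold limit.

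The TET genes changed in 3 different ways. TET1, known as the main TET of pluripotent cells, stood at 45.4 and 59.9 RPKM in 4i ESCs, 72.6 and 57.1 in N3+PGCLCs and 37.9 and 41.1 in DM+PGCLCs. It was at 18.6 and 18.1 in day 4 DZ+PGCLCs and at 8.38 and 8.39 in day 8 DZ+PGCLCs. Only 4i ESCs and N3+PGCLCs overlapped. Its log2 difference from 4i ESCs was 0.30 and -0.40 in N3+PGCLCs and DM+PGCLCs, neither called (adjusted p = 0.216 and 0.0846), and fell to -1.50 on day 4 (adjusted p = 0.000394) and -2.62 on day 8 (adjusted p = 4.18e-05), each ± 0.17. TET1 was the one gene of the 7 called lower on day 8 than on day 4, 2.17-fold (log2 difference -1.12 ± 0.17, adjusted p = 0.00362).

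TET2 was higher than 4i ESCs in every other group. It stood at 1.71 and 1.30 RPKM in 4i ESCs, and in the other 8 libraries between 6.92 and 10.5. No library outside 4i ESCs came near that group, and the other groups all overlapped with a neighbour in their order. Log2 differences from 4i ESCs were 2.30 in N3+PGCLCs (adjusted p = 0.000969), 2.54 in DM+PGCLCs (adjusted p = 0.000229), 2.38 on day 4 (adjusted p = 0.000275) and 2.46 on day 8 (adjusted p = 0.000184), each ± 0.25. None of the comparisons between the other groups was called for TET2, with log2 differences of at most 0.24 ± 0.25.

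TET3, known in mouse as the TET of the oocyte and zygote, was called higher than 4i ESCs in DZ+PGCLCs alone. Like UHRF1 and TET1, it was listed only for its difference between day 8 DZ+PGCLCs and 4i ESCs. The pattern in part restates that selection. Its RPKM was 6.32 and 6.70 in 4i ESCs, 5.42 and 7.54 in N3+PGCLCs, and 5.72 and 7.08 in DM+PGCLCs. On days 4 and 8 of DZ+PGCLCs it was 24.3 and 27.4, then 33.4 and 28.2, so that all 4 libraries were above the other 6. The log2 difference from 4i ESCs was 1.97 on day 4 (adjusted p = 0.000274) and 2.22 on day 8 (adjusted p = 0.000133), each ± 0.21, and it was -0.03 in both N3+PGCLCs and DM+PGCLCs. Day 8 stood 0.25 ± 0.21 above day 4, which was not called (adjusted p = 0.397).

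The make-up of TET transcripts turned over between 4i ESCs and DZ+PGCLCs. TET1 made up 85.0% and 88.2% of summed TET RPKM in the 2 libraries of 4i ESCs, 83.8% and 79.8% in N3+PGCLCs, 70.0% and 73.2% in DM+PGCLCs, 36.8% and 33.5% on day 4 and 16.3% and 18.9% on day 8. TET3 made up 11.8% and 9.87% in 4i ESCs and 65.0% and 63.5% on day 8. The share of TET2 was 3.20% and 1.91% in 4i ESCs and 9.67% to 19.4% elsewhere. The sum itself ran from 44.3 RPKM in a day 8 library to 86.6 in an N3+PGCLC library. Shares of 1 library sum to the whole, so they are not independent of each other, and no test was run on them.

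**Figure D2:**
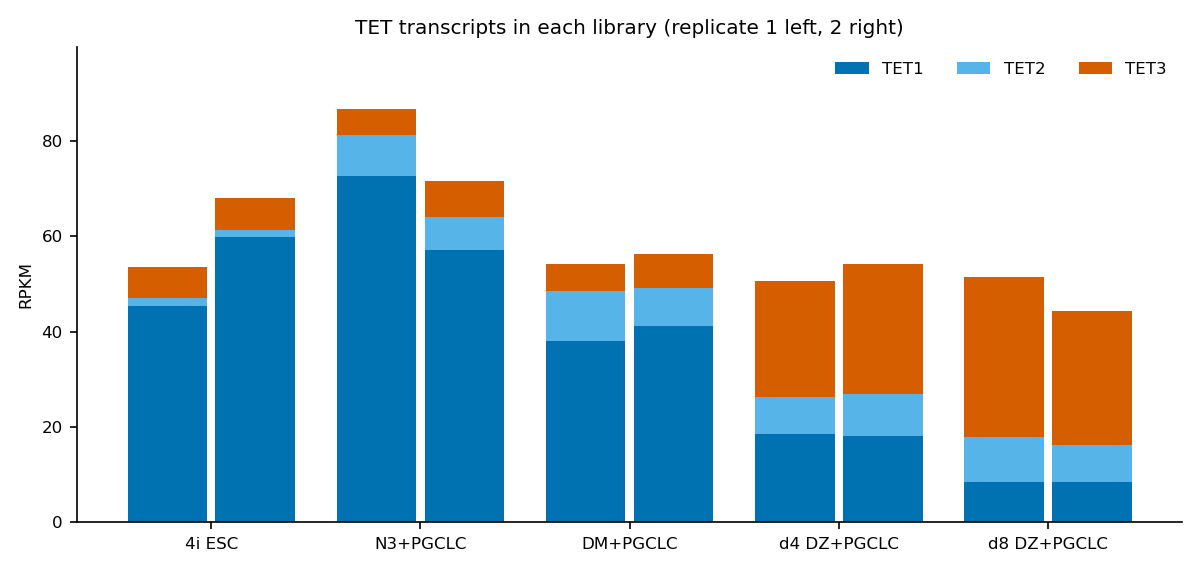
RPKM of TET1, TET2 and TET3 stacked for each of the 10 libraries, replicate 1 left and replicate 2 right in each group. TET1 is most of the bar in 4i ESCs, N3+PGCLCs and DM+PGCLCs, and TET3 is the largest part on days 4 and 8 of DZ+PGCLCs.

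APOBEC3B, never above 5.77 RPKM, was low in N3+PGCLCs and lowest on day 4 of DZ+PGCLCs. It stood at 5.07 and 3.65 RPKM in 4i ESCs, 1.21 and 1.28 in N3+PGCLCs, 5.77 and 4.41 in DM+PGCLCs, 0.609 and 0.314 in day 4 DZ+PGCLCs, and 3.76 and 3.61 in day 8 DZ+PGCLCs. 4i ESCs, DM+PGCLCs and day 8 DZ+PGCLCs were close together, with 4i ESCs overlapping both. Its log2 difference from 4i ESCs was -1.71 ± 0.36 in N3+PGCLCs (adjusted p = 0.0108) and -3.02 ± 0.36 on day 4 (adjusted p = 0.000472), and it was not called in DM+PGCLCs (0.22, adjusted p = 0.645) or on day 8 (-0.22, adjusted p = 0.618). Without 4i ESC replicate 1 the N3+PGCLC difference was -1.48 with an adjusted p of 0.0695, and with only those 4 libraries fitted the adjusted p was 0.0647. From N3+PGCLCs to DM+PGCLCs it rose 3.82-fold (adjusted p = 0.00638, or 0.0619 with only those 4 libraries), and from day 4 to day 8 it rose 6.98-fold (log2 difference 2.80 ± 0.36, adjusted p = 0.00214). Day 8 was also above N3+PGCLCs (log2 difference 1.49 ± 0.36, adjusted p = 0.00898), in a comparison that called 51.1% of all listed genes.

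**Figure D3:**
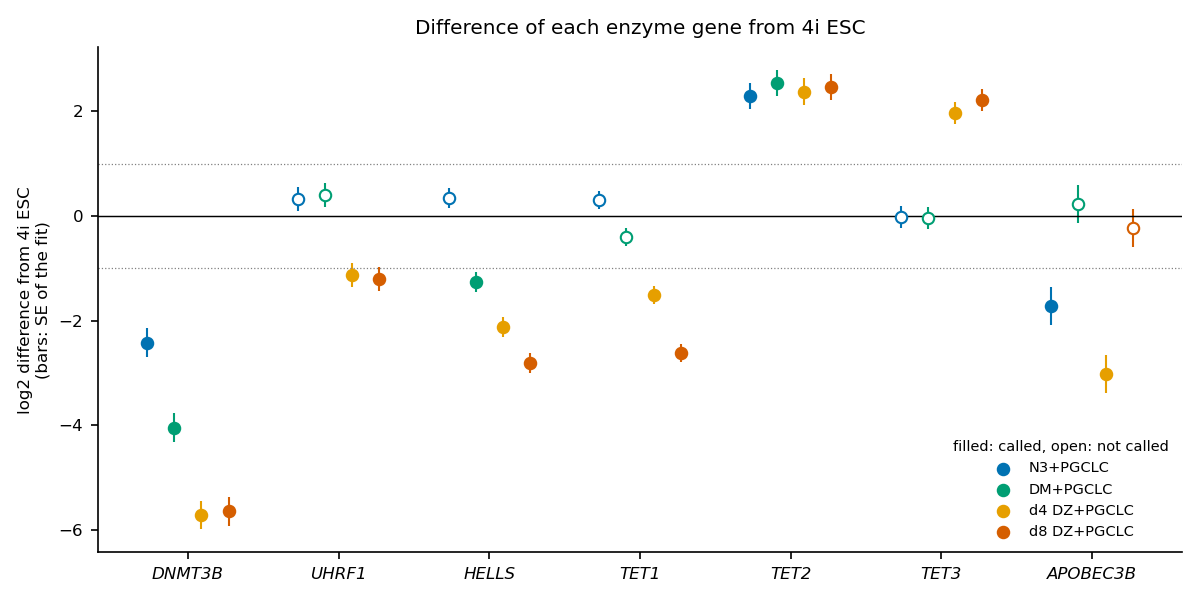
Log2 difference of each gene from 4i ESCs in the other 4 groups, with the standard error of the limma fit as bars; filled points passed a 2-fold change and an adjusted p under 0.05, open points did not, and dotted lines mark 2-fold. DNMT3B lies lowest in each group, and TET2 lies between 2.30 and 2.54 in all 4.

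Calls were made at a change over 2-fold and a Benjamini-Hochberg adjusted p under 0.05, over all 9706 listed genes. In N3+PGCLCs against 4i ESCs, TET2 was called higher and DNMT3B and APOBEC3B lower, 1 and 2 of 7 genes, where 13.8% of all listed genes were called higher and 12.3% lower. In DM+PGCLCs, TET2 was called higher and DNMT3B and HELLS lower, where the shares were 23.0% and 21.1%. On day 4 all 7 genes were called, 2 higher and 5 lower, with shares of 17.3% and 24.6%. On day 8, 2 were called higher and 4 lower, with shares of 28.5% and 27.4%. The tables hold genes already selected against 4i ESCs, so these shares are far above those of all genes, and for N3+PGCLCs, DM+PGCLCs and day 8 the selection used the contrast itself. The 4 comparisons share the 4i ESC libraries.

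Comparisons between the germ cell-like groups did not themselves select the tables. UHRF1, TET1 and TET3, however, were listed only because day 8 DZ+PGCLCs differed from 4i ESCs. Their calls between DZ+PGCLCs and the other groups are therefore not free of that selection, nor are the shares of listed genes. From N3+PGCLCs to DM+PGCLCs, 1 gene was called higher (APOBEC3B) and 2 lower (DNMT3B, HELLS), against 13.9% and 12.1% of listed genes, and with only those 4 libraries fitted none of the 7 was called. From N3+PGCLCs to day 4 DZ+PGCLCs, TET3 was called higher and 5 genes lower, against 15.5% and 24.1%. The fall of APOBEC3B among these 5 rested on 2.49-fold (adjusted p = 0.0195) and lost its call without N3+PGCLC replicate 1 or 2 (adjusted p = 0.0538 and 0.0617) or day 4 replicate 2 (log2 difference -0.92), with a pseudocount of 1 (adjusted p = 0.052) and with only those 4 libraries fitted (adjusted p = 0.103). In that last fit UHRF1, 1.45 lower on the log2 scale, also lost its call (adjusted p = 0.0501). From DM+PGCLCs to day 8 DZ+PGCLCs, TET3 was called higher and DNMT3B, UHRF1, HELLS and TET1 lower, against 28.1% and 27.5%. From day 4 to day 8, APOBEC3B was called higher and TET1 lower, against 15.4% and 8.30%. DM+PGCLCs and day 4 DZ+PGCLCs, where 45.0% of listed genes were called, differed in 5 of the 7: TET3 was called higher on day 4 (log2 difference 2.00 ± 0.21) and DNMT3B (-1.67 ± 0.28), UHRF1 (-1.53 ± 0.23), TET1 (-1.10 ± 0.17) and APOBEC3B (-3.25 ± 0.36) lower. The adjusted p of TET1 was 0.00128, and centring on abundant genes took its difference to -0.66, under the 2-fold limit.

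RPKM depends on the few genes that take most reads. When each library was centred on its abundant genes, the median of all listed genes moved by -0.24 in DM+PGCLCs, 0.20 on day 4 and 0.22 on day 8 against 4i ESCs, and by 0.46 from DM+PGCLCs to day 8. The share of higher calls moved with it, from 52.1% to 39.5% in DM+PGCLCs against 4i ESCs, from 53.5% to 41.6% in DM+PGCLCs against N3+PGCLCs, from 39.2% to 50.2% in day 4 against N3+PGCLCs and from 50.6% to 65.7% in day 8 against DM+PGCLCs. The directions of all called differences of the 7 genes stood under this centring.

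Other listed genes that take part in copying methylation were also low in DZ+PGCLCs. The list counts that follow stand beside the shares of all listed genes given above. Each count covers only listed genes, which had been selected as differing from 4i ESCs. Of 9 genes of maintenance methylation, 7 were listed, and 5 were called lower on day 4 (UHRF1, HELLS, CDCA7, CDCA7L, PCNA) and 6 on day 8 (the same and LIG1), with none higher. The others, DNMT1 and USP7, stood in none of the deposited tables. The median log2 difference of the 7 was -1.12 on day 4 and -1.51 on day 8, where that of all listed genes was -0.10 and 0.01. CDCA7, which targets HELLS to nucleosomes, was 2.41 lower on day 4 and 3.41 lower on day 8 than in 4i ESCs, each ± 0.35 on the log2 scale (adjusted p = 0.00106 and 0.000186), and its step from day 4 to day 8 was not called (-0.995, adjusted p = 0.0660). It was called higher in N3+PGCLCs (1.39 ± 0.35, adjusted p = 0.0197). In DM+PGCLCs the summed level of the 7 was 413 and 388 RPKM, against 559 and 509 in 4i ESCs, but HELLS alone was called lower, UHRF2 was called higher, and the median log2 difference was 0.04. UHRF2, the paralog of UHRF1, was called higher in DM+PGCLCs (1.08 ± 0.12, adjusted p = 0.000399) and lower on day 8 than on day 4 (-1.26 ± 0.12, adjusted p = 0.000917).

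The same libraries were low in genes of DNA replication and division. Of 20 such genes, 16 were listed; 13 were called lower than 4i ESCs on day 4 and 14 on day 8, and none in N3+PGCLCs or DM+PGCLCs, where 0 and 2 were higher. Their summed level was 733 and 887 RPKM in 4i ESCs, 712 and 849 in N3+PGCLCs and 785 and 822 in DM+PGCLCs, against 250 and 283 on day 4 and 177 and 178 on day 8. The median log2 difference of the list was -1.51 on day 4 and -2.10 on day 8, beside -1.12 and -1.20 for UHRF1. HELLS stood at -2.13 and -2.81 on these days, and was also called lower in DM+PGCLCs (-1.26). PCNA is in both lists. The part that proliferation takes in the levels of UHRF1 and HELLS was not tested.

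**Figure D4:**
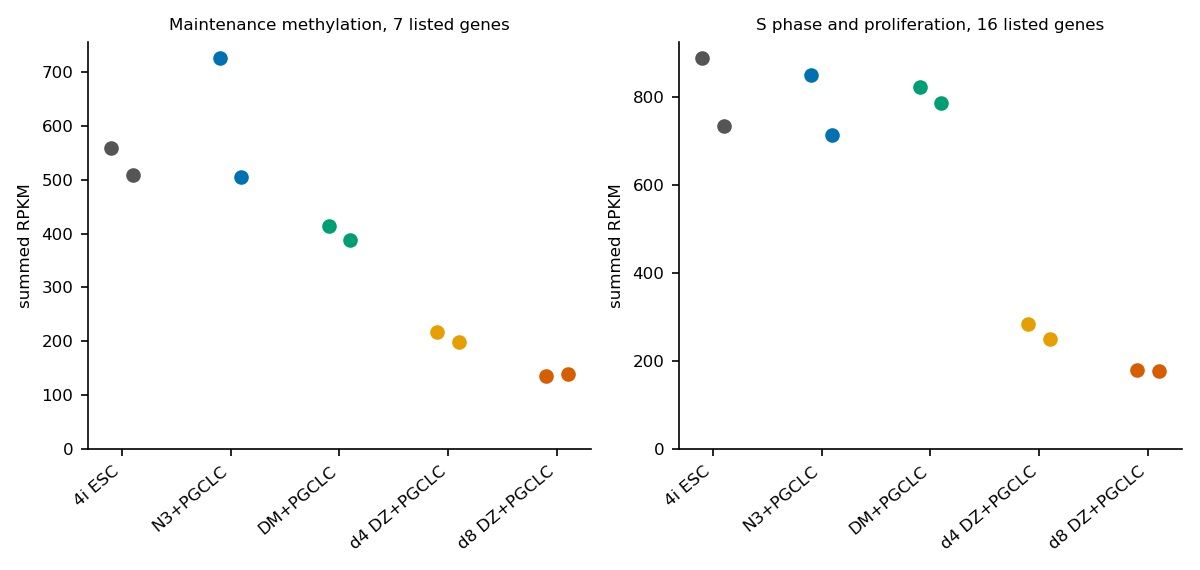
Summed RPKM of the 7 listed maintenance methylation genes (left) and of the 16 listed S phase and proliferation genes (right) in each library, replicate 1 left and 2 right. Both sums are lower in the 4 DZ+PGCLC libraries than in the other 6, and the left sum is lower in DM+PGCLCs than in 4i ESCs, where HELLS was the 1 gene called lower.

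Steps after oxidation or deamination were listed for 7 of 13 genes. TDG, MBD4, SMUG1, NEIL2, APEX1 and XRCC1 stood in none of the deposited tables. UNG, which cuts uracil out of DNA, was called lower than 4i ESCs on day 4 (-1.81 ± 0.30, adjusted p = 0.00190) and day 8 (-1.50 ± 0.30, adjusted p = 0.00336). The glycosylase gene NEIL3 was lower on both days too (-2.62 and -3.83), with PARP1 and GADD45G, so that 4 of the 7 were called lower on each day, with a median log2 difference of -1.23 on day 4 and -1.04 on day 8. GADD45B was the 1 called higher, on day 8 (log2 difference 2.10). In DM+PGCLCs the 3 called genes were GADD45A, GADD45B and GADD45G, all lower, and in N3+PGCLCs it was GADD45A alone, lower.

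Partners of the TET enzymes moved in their own ways. Of 7 genes of TET oxidation, TETs included, 6 were listed, with 3 called higher and 2 lower on day 4 (median 1.16) and 2 higher and 4 lower on day 8 (median -1.28). CXXC4, which binds unmethylated CpGs and whose gene arose next to TET2, was called higher on day 4 (2.59 ± 0.59, adjusted p = 0.00808) and lower on day 8 (-1.69 ± 0.59, adjusted p = 0.0357). Its level was 0.973 to 1.06 RPKM in 4i ESCs, 4.72 to 9.21 on day 4 and 0.0945 to 0.510 on day 8. The day 8 call thus rests on low values that differ between the libraries of that day. OGT, the sugar transferase that binds TETs, was 1.01 higher in N3+PGCLCs and, at -1.03, lower on day 8. In DM+PGCLCs TET2 was higher and CXXC5 lower, and in N3+PGCLCs TET2 and OGT were higher.

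Of 10 cytidine deaminase genes 7 were listed, with a median log2 difference from 4i ESCs of -0.59 on day 4 and -0.22 on day 8. APOBEC3C was called lower on day 4 (-1.98) and day 8 (-1.42), and APOBEC3D, APOBEC3F and APOBEC3H were called lower in DM+PGCLCs, where APOBEC3B was not called. In N3+PGCLCs APOBEC3B was the 1 called. The limit on near-identical paralogs holds for these genes as well.

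Listed genes that are known to be silenced by DNA methylation outside the germ line were called higher mainly in DZ+PGCLCs. Of 15 such genes 7 were listed: 0 were called higher than 4i ESCs in N3+PGCLCs, 2 in DM+PGCLCs (TDRD9, STK31), 4 on day 4 (DAZL, BOLL, PIWIL2, STK31) and 6 on day 8 (with PIWIL1 and TDRD9), and none lower. The unlisted genes were DDX4, MAEL, TDRD1, SYCP1, SYCP3, HORMAD1, SLC25A31 and TEX101. They stood in none of the deposited tables, and the study reports DDX4 as undetectable in its single-cell data. DAZL was the marker of the sort, so its rise was set by the sort. No median is given, because 4 of the 7 were listed at 0 in both 4i ESC libraries. PIWIL2, a piRNA pathway gene, stood at 0.303 to 0.388 RPKM in 4i ESCs, 1.34 to 1.93 on day 4 and 3.18 to 3.68 on day 8, with no overlap (log2 difference 2.99 ± 0.45 on day 8, adjusted p = 0.000945). STK31 stood at 0.137 to 0.375 RPKM in 4i ESCs and 2.26 to 2.98 on day 8. TDRD9 was listed at 0 in both libraries of 4i ESCs, N3+PGCLCs and day 4 DZ+PGCLCs, and stood at 1.47 to 2.89 RPKM in DM+PGCLCs and 0.109 to 0.261 on day 8. The highest DAZL value was 11.3 RPKM.

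By pattern over the 10 libraries, each enzyme was set beside the 5133 other listed genes with a mean log2 level over 2. The libraries fall into groups and the groups set these correlations, so they are descriptions only. DNMT3B was most like SERINC5, CHML and TAF1D (Pearson's r 0.991, 0.990 and 0.988). UHRF1 was most like TK1, a gene of nucleotide supply, and was also like PYCARD (0.986 for each), and HELLS was most like RBPMS, PHC1 and BEND3 (0.987, 0.985 and 0.982). TET1 was most like SLC44A1 and ENPP1 (0.992 for each), TET2 like CCDC57, CCDC189 and RTL5 (0.973, 0.968 and 0.965), and TET3 like CYLD, DNAJA4 and CYHR1 (0.992, 0.986 and 0.982). APOBEC3B had the weakest likeness, with APOL2, TAX1BP3 and IL32 at 0.934, 0.927 and 0.924.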

How the data were processed

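The members and the gene lists were chosen with earlier results of these data known. RNA was measured in 10 libraries, and 3 CUT&RUN samples of the series were not analysed here. Per the study's methods, reads were trimmed with Trim Galore and mapped with STAR to GRCh38.p13, keeping unique reads, from rRNA-depleted stranded libraries. RPKM came from Cufflinks. The authors deposited log2(RPKM + 0.1) per library in 3 tables (2577, 5392 and 6862 genes), each limited to genes that passed their test against 4i ESCs. The tables' columns of log2 fold change and FDR hold the authors' own edgeR comparisons and were not used, nor were 8 enrichment tables.

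The values of the 9706 listed genes were fitted as deposited with limma 3.58.1 (R 4.3.3, intensity trend), with 1 mean per group and 5 residual degrees of freedom, and no filter. p-values were adjusted by Benjamini-Hochberg over all 9706 genes, and calls needed a change over 2-fold and an adjusted p under 0.05. The step was tested on simulated data. With 2 libraries against 2, an exact two-sided permutation test cannot go below p = 0.333. All members found were named, any gene of the lists could be, and the 3 most similar genes per member were taken by Pearson's r, of which 2 are not reported here. Absolute depth is not given by RPKM. Relative depth came from the steps between low values, at the most common ratio to 4i ESC replicate 1. That ratio was shared by only 6 to 37 genes, so the depths are rough. Alternatives were a fit of the 4 libraries compared, the replicate number as a block, a pseudocount of 1, a mean RPKM of at least 1, centring on 2540 abundant genes, no trend, and leaving out each library. Coordinates are from GENCODE 44 and promoters from RefSeq. Python 3.11.15 was used.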

Additional observations from a re-analysis of the deposited data

Results flagged for a closer look

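Both days of DZ+PGCLCs were set against the same 4i ESCs. For 2 genes the change in the difference from 4i ESCs was called in the limma test of day 8 against day 4. HELLS also differed in that test (-0.69 on the log2 scale, adjusted p = 0.0305) but stayed under the 2-fold limit. For TET1 the day 8 difference was lower by 1.12 (day 8 minus day 4: -1.12 on the log2 scale, adjusted p = 0.00362, both day 8 libraries below both day 4 libraries). For APOBEC3B it was higher by 2.80 (adjusted p = 0.00214), with both day 8 libraries above both day 4 libraries.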

How the results depend on the processing

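Of 70 member differences 46 were called, none of these changed sign under any alternative, and 9 lost the call under at least one. Fitting only the 4 libraries compared gave 902 called genes for N3+PGCLCs against 4i ESCs (2531 in the fit of 10), 685 for DM+PGCLCs against N3+PGCLCs (2517, with 0 members called in place of 3) and 2514 for day 4 DZ+PGCLCs against N3+PGCLCs (3846), where UHRF1 had an adjusted p of 0.0501 and APOBEC3B of 0.103. With a pseudocount of 1, day 8 against day 4 gave 1491 called genes (2299), and APOBEC3B in day 4 against N3+PGCLCs fell by 0.63 (adjusted p = 0.052). Centring turned 6 small uncalled differences: APOBEC3B in DM+PGCLCs (-0.018) and day 8 (0.0015) against 4i ESCs and in day 8 against DM+PGCLCs (0.019), UHRF1 in DM+PGCLCs against N3+PGCLCs (-0.10), and TET2 in day 8 (0.39) and day 4 (0.28) against DM+PGCLCs; it also took TET1 in day 4 against DM+PGCLCs to -0.66, under 2-fold.

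Leaving out single libraries gave 1607 to 2474 called genes for N3+PGCLCs against 4i ESCs (lowest without 4i ESC replicate 1), 1634 to 2656 for DM+PGCLCs against N3+PGCLCs (lowest without DM+PGCLC replicate 2), and 1258 to 2395 for day 8 against day 4 (1394 and 1258 without day 8 replicate 1 and 2). Uncalled differences that changed sign ranged as follows. Against 4i ESCs, TET3 ranged from -0.26 to 0.21 in N3+PGCLCs and -0.18 to 0.12 in DM+PGCLCs, and APOBEC3B from -0.0073 to 0.46 in DM+PGCLCs and -0.45 to 0.011 on day 8. In DM+PGCLCs against N3+PGCLCs, UHRF1 ranged from -0.23 to 0.39 and TET3 from -0.24 to 0.23. TET2 ranged from -0.080 to 0.24 in day 4 against N3+PGCLCs, -0.28 to 0.12 in day 8 against DM+PGCLCs, and -0.36 to 0.039 in day 4 against DM+PGCLCs. In day 8 against day 4, DNMT3B ranged from -0.075 to 0.21, UHRF1 from -0.26 to 0.11 and TET2 from -0.066 to 0.23. The causes were not tested.

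Deviations of same-numbered libraries from their group means correlated at -0.13 to 0.10 over 10 pairs of groups. Such weak correlations over all listed genes cannot settle whether libraries with the same number were made together. With the replicate number as a block, called genes numbered 2449 for N3+PGCLCs and 5353 for day 8 against 4i ESCs, and no member's call changed. With 2 libraries a group, low genes such as APOBEC3B are the least precise.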

Other observations

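Other lists around methylation were counted the same way, beside the shares of all listed genes given in the report. Of 10 methyl-CpG readers 4 were listed, and MBD6 was called higher than 4i ESCs in DM+PGCLCs (log2 difference 1.72 ± 0.20, adjusted p = 0.000443), on day 4 (2.51) and on day 8 (2.66), with MBD3 also higher on day 8 and ZBTB38 lower in DM+PGCLCs and on day 4. Of 11 genes that target or protect methylation 2 were listed, ZNF445 called lower in DM+PGCLCs (-2.16) and KDM1A, a histone demethylase, on day 8 (-1.16). Of 13 genes that supply methyl donors or 2-oxoglutarate 8 were listed, with 3 lower on day 4 and 2 on day 8 and none higher. Among them IDH2, a mitochondrial source of 2-oxoglutarate, which TET enzymes need, was lower on day 4 (-2.09 ± 0.38, adjusted p = 0.00313) and day 8 (-2.73 ± 0.38, adjusted p = 0.000687).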
